A study of Mus musculus with 21 samples.

Results

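The 8 genes Ccr7, Fscn1, Socs2, Anxa3, Apol7c, Cacnb3, Marcksl1 and Samsn1 mark mature dendritic cells (DCs), the state in which a DC leaves its tissue for the lymph node. They were taken by symbol from a table of 55471 genes. All 8 were found, with at least 294 counts in every library, and all 8 passed the filter on low counts in every comparison. The libraries came from DCs of C57BL/6 mice of 6 weeks that carry AGF-KI, a knock-in reporter for Aire, the autoimmune regulator. The first genotype is AGF-KI/+ (KI/+ below). The second is AGF-KI/-, which the sample titles call AireKO. The 21 libraries form 7 groups of 3 biological replicates, and every mouse in them carried the reporter allele.

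From lymph node, cells with CD45, CD11c and MHCII were sorted into reporter-positive (AGF+) and reporter-negative (AGF−) cells of both genotypes. From bone marrow, AGF+ cells of both genotypes were taken from the B220-negative, CD24-positive gate with little or no CD11b. The last group was taken from KI/+ marrow through the B220-negative gate with CD11c and MHCII. The titles call it total DC and the design text calls it AGF−, and it is named total DC here. In bone marrow the reporter and the gate therefore cannot be told apart, nor can tissue and gate between lymph node and marrow AGF+ cells. The titles name the lymph node groups LNDC and the marrow groups BMDC, and whether cells were cultured before the sort is not stated here. No group without the reporter allele was analysed here.

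A maturing DC switches off receptors that hold it in inflamed tissue and switches on CCR7, the receptor for the chemokines CCL19 and CCL21, which lead it through lymphatic vessels to the T cell zone. At the same time it rebuilds its actin skeleton into long dendrites, with fascin as the bundling protein, raises costimulatory molecules through NF-kB, and expresses brakes on cytokine signalling such as SOCS2. The same set of genes appears in DCs that mature without infection, as homeostatic migratory DCs do.

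In the GENCODE annotation of GRCm38 (vM21) all 8 are protein-coding genes. Ccr7 lies on chr11:99144196-99155077 (minus strand) and Fscn1 on chr5:142960343-142973185 (plus). Socs2 spans chr10:95385362-95417180 (minus) and Anxa3 chr5:96793339-96845966 (plus). Apol7c, on chr15:77524852-77533316 (minus), and Cacnb3, on chr15:98630840-98644529 (plus), share a chromosome but are not neighbours. Marcksl1 lies on chr4:129513581-129515985 (plus) and Samsn1 on chr16:75858793-76022281 (minus). Of the exon bases of Anxa3, 3.07% are shared with Gm42603 on the same strand, so a few of its reads could belong to either.

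RefSeq promoter windows (GRCm38.p6, 250 bases before a transcript start) were on hand for Fscn1, Apol7c, Cacnb3, Marcksl1 and Samsn1. Those of Fscn1, Marcksl1 and Apol7c are printed, because those of Cacnb3 and Samsn1 lie inside the annotated gene. Fscn1 and Marcksl1 had higher means in the AGF+ sort of each tissue. Apol7c was lower in the AGF+ sort of lymph node and higher in that of marrow. In KI/+ lymph node the sorts overlapped for Fscn1 and Marcksl1, and neither gene passed the test given below. Bases that lie inside the annotated gene were left off. Capitals mark every match, on either strand, to the NF-kB consensus, the STAT motif TTCNNNGAA, the AP-1 motif TGANTCA, an ISRE-like motif GAAANNGAA or the PU.1 core GAGGAA. The windows are chr15:77533317-77533565 (minus strand) for Apol7c, chr5:142960105-142960342 (plus) for Fscn1 and chr4:129513331-129513580 (plus) for Marcksl1.
Apol7c: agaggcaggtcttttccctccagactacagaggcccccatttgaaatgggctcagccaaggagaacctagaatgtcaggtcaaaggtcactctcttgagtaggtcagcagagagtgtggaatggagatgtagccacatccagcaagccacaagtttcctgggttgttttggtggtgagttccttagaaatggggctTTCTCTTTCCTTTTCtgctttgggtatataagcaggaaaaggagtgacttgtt
Fscn1: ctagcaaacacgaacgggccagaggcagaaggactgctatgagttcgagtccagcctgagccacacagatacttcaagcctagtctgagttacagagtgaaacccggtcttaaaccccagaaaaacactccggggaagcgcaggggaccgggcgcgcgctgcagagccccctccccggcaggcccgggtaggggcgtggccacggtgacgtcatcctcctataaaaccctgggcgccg
Marcksl1: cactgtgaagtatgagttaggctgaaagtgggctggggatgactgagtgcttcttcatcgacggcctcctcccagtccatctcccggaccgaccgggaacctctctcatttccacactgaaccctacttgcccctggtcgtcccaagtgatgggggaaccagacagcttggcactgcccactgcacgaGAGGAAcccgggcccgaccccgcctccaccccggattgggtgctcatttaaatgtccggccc
The capitals in Apol7c are a pair of overlapping ISRE-like matches on the opposite strand, at -54 and -48 from the transcript start. ISRE-like letters occurred in 7.13% of the 32851 promoter windows of the table. A further ISRE-like match lay at -67 of 1 of the 2 Cacnb3 starts. PU.1 cores, found in 23.3% of windows, lay at -62 of Marcksl1 and at -50 and -28 of Samsn1. Fscn1 held none of the 5 motifs, and no window of these genes held NF-kB, STAT or AP-1 letters, which 3.90%, 7.02% and 6.75% of all windows hold. A match is a description of letters and not a binding site.

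Libraries held 4164451 to 6055097 counts, so that 1 CPM (counts per 1000000 counts of effective library size) rested on 3.92 to 6.58 counts. Aire itself ranged from 98.7 to 132 CPM (KI/+) and from 22.7 to 26.5 CPM (AireKO) among AGF+ libraries of lymph node, and from 79.3 to 115 and 11.5 to 19.6 CPM among those of marrow. It was at 10.5 to 14.9 CPM in the AGF− sort and at 0.819 to 1.28 CPM in total DCs, and transcripts counted to it thus remained in AireKO cells. All 8 defining DC markers (Flt3, Zbtb46, Itgax, the MHCII genes and Ciita among them) were detected in all 21 libraries, with a summed level of 5525 to 12075 CPM. The labels call every mouse male, yet the 7 libraries numbered 2, 1 in each group, held 2021 to 3993 CPM of Xist and at most 0.766 CPM of 4 Y-linked genes, against 0 to 31.1 and 329 to 566 CPM in the other 14. Results that change without these 7 libraries are given beside them. In sorted bulk cells, fewer cells of a type and less RNA per cell cannot be told apart.

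Levels of the chemokine receptor gene Ccr7 divided by tissue. In KI/+ lymph node they were 460, 227 and 326 CPM in AGF+ cells (replicates 1 to 3 here and below) and 447, 419 and 298 in AGF− cells. AireKO lymph node gave 163, 238 and 245 CPM in AGF+ cells and 128, 302 and 178 in AGF− cells. In marrow, total DCs gave 1225, 588 and 594 CPM, KI/+ AGF+ cells 1214, 911 and 750, and AireKO AGF+ cells 1058, 928 and 1009. All 9 marrow libraries were above all 12 lymph node libraries. Within each tissue, groups next to each other in level overlapped.

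Fscn1, the actin bundler, was highest on average in lymph node AGF+ cells, with 2070, 1171 and 1803 CPM (KI/+) and 1254, 1329 and 1764 CPM (AireKO). The AGF− sort gave 1506, 1265 and 1175 CPM for KI/+ mice and 516, 1170 and 881 for AireKO mice. Marrow AGF+ libraries measured 1272, 1167 and 973 CPM (KI/+) and 1076, 1128 and 1183 CPM (AireKO), and total DCs 762, 457 and 453 CPM. Total DCs were the lowest group, though their highest library passed the lowest of the AireKO AGF− cells. Per exon length, Fscn1 was the most abundant of the 8 in lymph node KI/+ AGF+ cells, at 558 ± 153 RPKM (SD, n = 3), ahead of Cacnb3 at 332 ± 93.9 and Marcksl1 at 188 ± 33.7 RPKM, followed by Apol7c at 182 ± 68.0 and Ccr7 at 171 ± 59.2 RPKM. In marrow KI/+ AGF+ cells Ccr7 came first at 484 ± 119 RPKM, with Fscn1 at 378 ± 50.4 and Apol7c at 373 ± 65.5 RPKM.

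Marcksl1, a small relative of the actin and membrane binding protein MARCKS, was likewise highest on average in lymph node AGF+ cells and lowest in total DCs. AGF+ libraries of lymph node measured 356, 247 and 303 CPM (KI/+) and 220, 257 and 330 CPM (AireKO), and AGF− libraries 276, 253 and 191 CPM (KI/+) and 137, 219 and 225 CPM (AireKO). Marrow AGF+ cells gave 219, 198 and 141 CPM (KI/+) and 175, 189 and 199 (AireKO). Total DCs, with 139, 65.1 and 66.0 CPM, stood apart below KI/+ marrow AGF+ cells.

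Cacnb3, the β3 subunit that brings voltage-gated calcium channels to the membrane, was again highest on average in lymph node AGF+ cells. KI/+ libraries held 1615, 904 and 1473 CPM and AireKO libraries 858, 1027 and 1359. The AGF− sort gave 1107, 1081 and 919 CPM for KI/+ and 409, 978 and 584 for AireKO mice. The KI/+ AGF− libraries overlapped those of both lymph node AGF+ groups. In marrow the values were 951, 748 and 591 CPM in KI/+ AGF+ cells, 777, 797 and 794 in AireKO AGF+ cells, and 804, 339 and 334 in total DCs. A single total DC library, replicate 1, thus lay within the range of the AGF+ cells.

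Anxa3, a calcium-dependent phospholipid binding annexin, split the tissues the other way from Ccr7. It measured 582, 442 and 577 CPM in KI/+ and 505, 441 and 560 in AireKO lymph node AGF+ cells, and 541, 475 and 493 in KI/+ AGF− cells. AireKO AGF− cells gave 180, 382 and 341 CPM, below each of the other lymph node groups. Marrow levels were 368, 234 and 336 CPM in total DCs, 306, 222 and 244 in KI/+ and 296, 255 and 279 in AireKO AGF+ cells. Apart from those AireKO AGF− cells, lymph node lay above marrow in every library.

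Socs2, a suppressor of cytokine signalling that STAT5 induces, shared the marrow-high order of Ccr7. Lymph node AGF+ cells held 280, 112 and 183 CPM (KI/+) and 105, 107 and 150 (AireKO), and AGF− cells 293, 190 and 179 (KI/+) and 58.1, 146 and 113 (AireKO). Total DCs held 400, 319 and 402 CPM, KI/+ marrow AGF+ cells 312, 282 and 298, and AireKO marrow AGF+ cells 344, 318 and 313. Samsn1, an adaptor with SH3 and SAM domains that damps B cell activation, was also highest in marrow AGF+ cells, with 907, 747 and 1040 CPM (KI/+) and 992, 856 and 913 (AireKO), and reached 735, 464 and 650 in total DCs. In lymph node Samsn1 measured 405, 418 and 502 CPM in KI/+ and 361, 451 and 625 in AireKO AGF+ cells, 386, 479 and 472 in KI/+ and 195, 412 and 488 in AireKO AGF− cells. The 4 lymph node groups of each gene overlapped with their neighbours in level.

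Apol7c, an apolipoprotein L gene linked to antigen cross-presentation by DCs, followed neither order. It was highest in lymph node KI/+ AGF− cells, at 989, 925 and 810 CPM, and in marrow KI/+ AGF+ cells, at 900, 771 and 630 CPM. AireKO marrow AGF+ cells gave 572, 765 and 575 CPM and AireKO lymph node AGF− cells 291, 840 and 542. Lymph node AGF+ cells held only 434, 215 and 476 CPM (KI/+) and 236, 247 and 276 (AireKO). Total DCs held 323, 179 and 56.7 CPM. So the reporter-positive cells were the low sort in lymph node and the high sort in marrow.

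**Figure D1:**
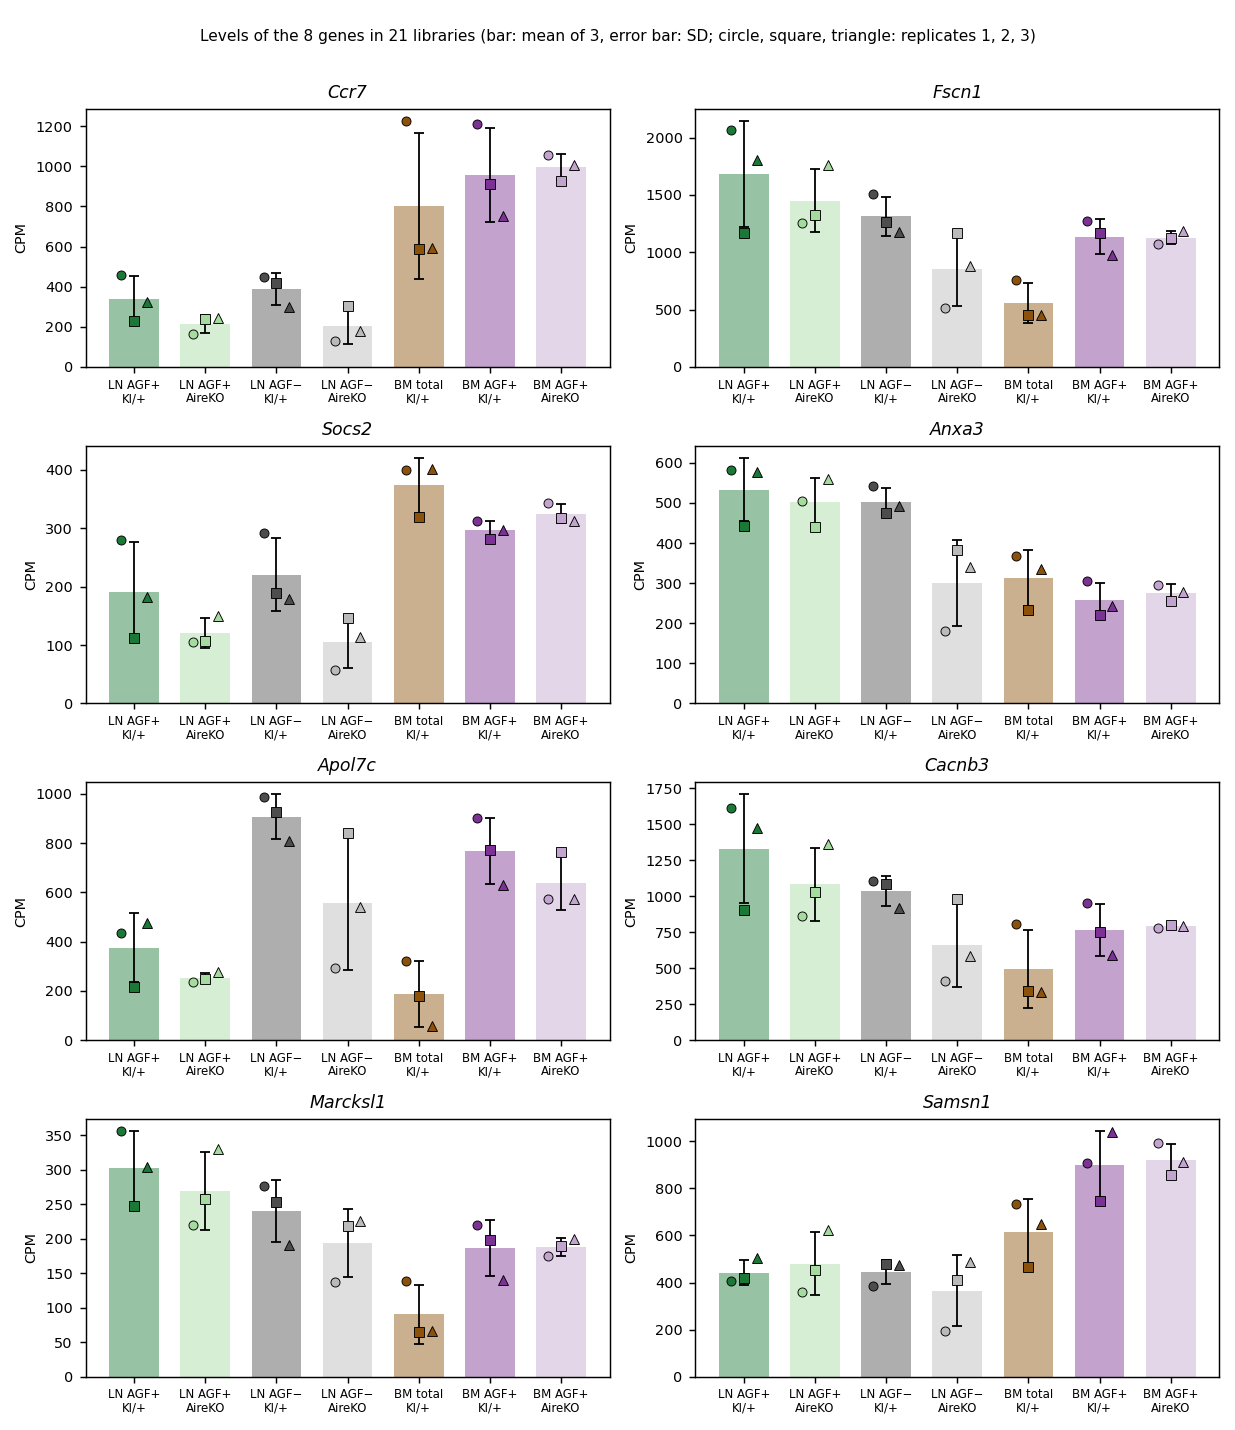
CPM of the 8 genes (1 panel each, linear axis from 0) in the 7 groups, with LN for lymph node and BM for bone marrow; bars are means of 3 libraries, error bars the SD, and symbols single libraries. By group mean, Ccr7, Socs2 and Samsn1 are highest in marrow groups, and Fscn1, Cacnb3 and Marcksl1 in lymph node AGF+ cells. Anxa3 is highest in the lymph node groups other than AireKO AGF− cells, and Apol7c in lymph node AGF− and marrow AGF+ cells.

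Whether reporter-positive cells carry more of the maturation genes than other DCs of the same gate is the first comparison. In KI/+ lymph node 7 of the 8 did not pass the test, and 1 gene, Apol7c, was lower in AGF+ cells by 1.28 ± 0.32 on the log2 scale (SE, 3 against 3 libraries, a 2.42-fold lower level, edgeR adjusted p = 0.0108). Over all 15884 genes tested, 21.1% were called (10.1% higher and 11% lower), so 1 of 8 is no more than the background. The groups of Apol7c did not overlap, as those of 38.4% of all genes. Ccr7 differed by -0.20 (95% interval -0.83 to 0.43), Socs2 by -0.20 (-0.91 to 0.50), Samsn1 by -0.02 (-0.58 to 0.55) and Anxa3 by 0.08 (-0.37 to 0.54). Fscn1 at 0.35, Cacnb3 at 0.36 and Marcksl1 at 0.33 leaned to AGF+ cells without passing the test, and none of these p-values shows that the sorts are alike.

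In AireKO lymph node 3 genes were called, against 24.7% of all genes (11.4% higher and 13.3% lower). Fscn1 was higher in AGF+ cells by 0.76 ± 0.26 (1.69-fold, adjusted p = 0.0462) and Anxa3 by 0.74 ± 0.21 (1.67-fold, adjusted p = 0.0206), and Apol7c was lower by 1.14 on the log2 scale (a change of -1.14 ± 0.32, adjusted p = 0.0168). The groups of all 3 genes did not overlap, as those of 39.6% of all genes. Cacnb3 at 0.71 ± 0.28 (adjusted p = 0.0776) and Marcksl1 at 0.47 ± 0.20 (adjusted p = 0.113) were not called by edgeR, while the DESeq2 Wald test called Cacnb3 (adjusted p = 0.0442). These calls rest on few libraries. In a fit of these 2 groups alone Fscn1 (adjusted p = 0.0804) and Anxa3 (0.0660) were not called, and limma voom did not call Fscn1 (0.0604). The Fscn1 call was lost without AGF− replicate 1 (0.49, adjusted p = 0.138) or 3 (0.77, 0.0922) and without AGF+ replicate 1, 2 or 3 (adjusted p 0.0635, 0.0765 and 0.162), that of Anxa3 without AGF+ replicate 1 or 3 (0.0576 and 0.0727), and that of Apol7c without AGF+ replicate 1 or 2 or AGF− replicate 2 (0.0624, 0.0584 and 0.0836) or without the libraries numbered 2 (0.0931), while Cacnb3 was called without AGF− replicate 2 (1.13, adjusted p = 0.00463) and without the libraries numbered 2 (1.16, adjusted p = 0.00878).

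Markers of several other cell types, though not all, moved with the lymph node sort. Summed levels of 11 monocyte and macrophage markers were 262 to 545 CPM in the 6 AGF+ libraries and 1971 to 2833 in the 6 AGF− libraries, and those of 9 B cell markers 69.9 to 101 and 351 to 1089 CPM. For 7 NK cell markers they were 0.655 to 2.87 and 29.9 to 429 CPM, with Gzmb at 0 in all AGF+ libraries. The 8 markers of type 1 conventional DCs (cDC1) summed to 878 to 1114 CPM in AGF+ and 1163 to 2221 CPM in AGF− cells. T cell markers overlapped, at 259 to 456 CPM in AGF+ and 151 to 478 CPM in AGF− cells. Progenitor markers were higher in AGF+ cells, at 359 to 410 against 252 to 289 CPM. The part of such cells in the Apol7c difference was not tested.

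In KI/+ marrow, AGF+ cells held more of 4 of the 8 genes than total DCs and less of 1, while 44.3% of the 15503 genes tested were called there, 23% higher and 21.3% lower. Apol7c was higher by 2.06 ± 0.45 (4.17-fold, adjusted p = 0.00324), Marcksl1 by 1.06 ± 0.27 (2.09-fold, 0.00764), Fscn1 by 1.05 ± 0.19 (2.07-fold, 0.00107) and Samsn1 by 0.56 ± 0.17 (1.47-fold, 0.0195). Socs2 was lower, with a change of -0.31 ± 0.11 (adjusted p = 0.0409). The groups of these 5 genes did not overlap, as those of 51.5% of all genes. Ccr7 at 0.27 (-0.31 to 0.85), Anxa3 at -0.27 (-0.64 to 0.11) and Cacnb3 at 0.65 (-0.01 to 1.30) were not called.

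Total DC replicate 1 was the highest of its 3 libraries in 7 of the 8 genes, with a sum of 4755 CPM against 2645 and 2891. Without it Ccr7 (0.70, adjusted p = 0.00681) and Cacnb3 (1.19, adjusted p = 2.4e-04) were called higher in AGF+ cells, as they were by limma voom (0.0272 and 0.00129). With the replicate number as a block, Cacnb3 was called as well (0.72, adjusted p = 0.0144). The Socs2 call was lost in 12 of 17 alternatives, among them each single library left out except total DC replicate 2 (adjusted p 0.0540 to 0.136). Samsn1 lost its call without total DC replicate 2 (0.0618) or AGF+ replicate 3 (0.0737) and in 1 fit of all 21 libraries (0.0840). Anxa3 gained one without total DC replicate 2 (-0.44, adjusted p = 0.0385). Without the libraries numbered 2, Apol7c (0.0515), Socs2 (0.0899) and Marcksl1 (0.117) lost theirs.

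The 2 marrow gates also differed in other markers. Monocyte and macrophage markers summed to 128 to 234 CPM in AGF+ cells and 1250 to 1760 in total DCs, and 8 cDC2 markers to 549 to 680 and 1644 to 1969 CPM. Plasmacytoid DC markers were higher in AGF+ cells (1335 to 1496 against 587 to 702 CPM), as were T cell markers (797 to 814 against 106 to 168) and progenitor markers (778 to 840 against 214 to 293). Their part in these differences was not tested.

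**Figure D2:**
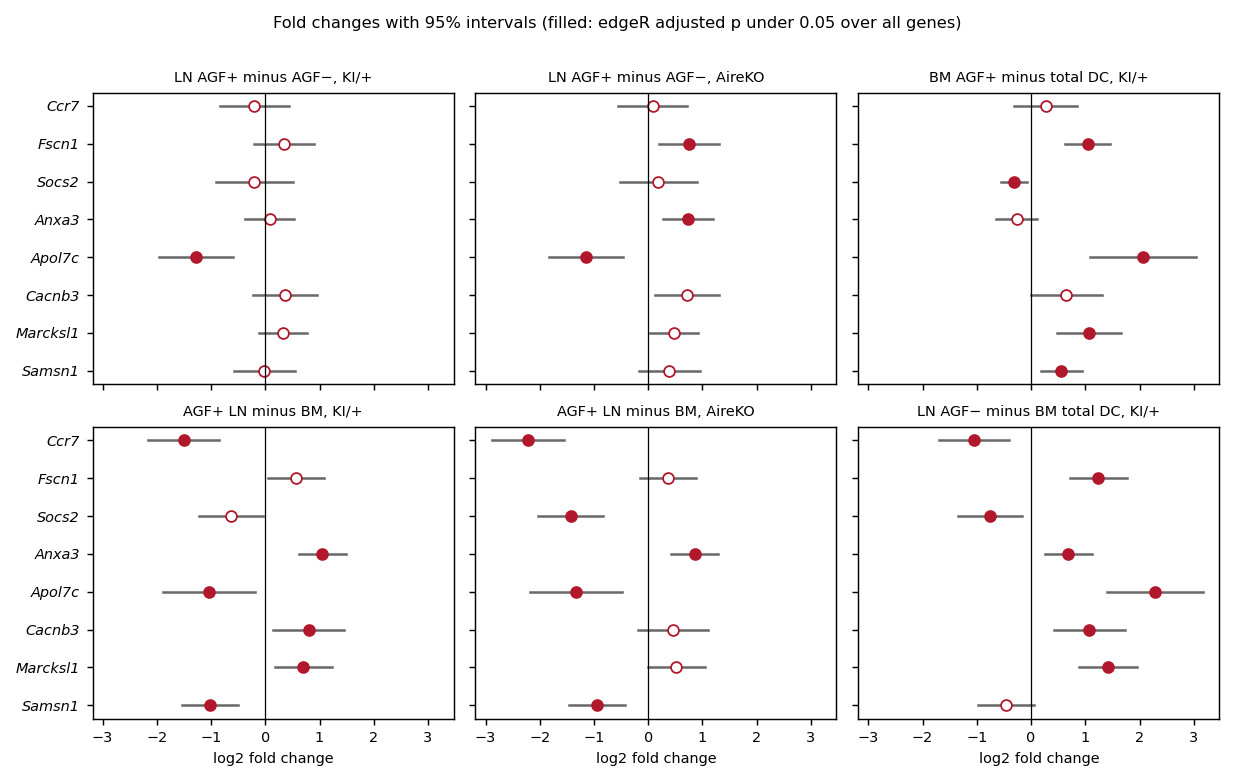
Log2 fold changes (x axis) of the 8 genes (y axis) in 6 comparisons, with 95% intervals; filled points have an edgeR adjusted p under 0.05 over all genes tested. Apol7c lies at -1.28 and -1.14 for the lymph node reporter and at 2.06 for the marrow sort, and Ccr7 below 0 in all 3 comparisons of lymph node with marrow.

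The sort effect was then compared between the tissues within KI/+ mice, as the interaction of sort and tissue over all 21 libraries. Apol7c was the single one of the 8 called, with a difference of effects of -3.32 ± 0.59 (95% interval -4.54 to -2.10, adjusted p = 3.3e-04). It was called in all 22 alternatives, with differences from -3.98 to -2.89. The interaction was called for 21% of the 17265 genes. Marcksl1 at -0.72 (-1.46 to 0.03) and Fscn1 at -0.68 (-1.41 to 0.06) were not called, but were without total DC replicate 1 (-1.17, adjusted p = 0.00841, and -0.97, adjusted p = 0.0465) and by limma voom (-1.08, 0.00559, and -0.83, 0.0283). The same gates define the cells as above, so that gate and tissue cannot be told apart in this difference.

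AGF+ cells of lymph node and marrow differed in 6 of the 8 genes in KI/+ mice, 3 in each direction, while 54.2% of all genes were called, 27.2% higher and 27% lower in lymph node. Ccr7 was lower in lymph node, with a change of -1.50 ± 0.31 (2.84-fold, adjusted p = 4.2e-04), as were Samsn1 (-1.02 ± 0.25, 0.00161) and Apol7c (-1.03 ± 0.41, 0.0376). Anxa3 was higher in lymph node by 1.05 ± 0.21 (2.07-fold, adjusted p = 2.8e-04), Cacnb3 by 0.80 ± 0.31 (0.0358) and Marcksl1 by 0.70 ± 0.25 (0.0238). Fscn1 at 0.56 ± 0.25 and Socs2 at -0.63 ± 0.28 were not called by edgeR (adjusted p = 0.0610 and 0.0621). Limma voom (0.00815 and 0.0115) and a fit of the 2 groups alone (0.0281 and 0.0374) called both, the DESeq2 Wald test called Socs2 (0.0452), and scaling by library size alone called Fscn1 (0.0145). The calls of Ccr7, Samsn1 and Anxa3 held in all 16 alternatives.

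The other 3 calls did not hold throughout. Cacnb3 lost its call without lymph node replicate 1 or 3 or marrow replicate 2 or 3 (adjusted p 0.144, 0.105, 0.0897 and 0.153). Marcksl1 lost it without lymph node replicate 1 or 3 or marrow replicate 3 (adjusted p of 0.0558 or more), and Apol7c without lymph node replicate 2 or marrow replicate 1 or 2 (0.153, 0.0970 and 0.0634) and with scaling by library size alone (0.0691). Without the libraries numbered 2, Apol7c (0.251) and Marcksl1 (0.0558) were not called and Fscn1 was (0.0383). Fscn1 was called also without lymph node replicate 2 (0.75, adjusted p = 0.0192), and Socs2 without lymph node replicate 1 (-1.03, adjusted p = 0.00616). Markers of other cells differed too between lymph node and marrow AGF+ cells of KI/+ mice. Summed levels were 390 to 456 and 1335 to 1496 CPM for plasmacytoid DC markers, 259 to 456 and 797 to 814 for T cell markers, and 359 to 408 and 778 to 840 for progenitor markers. For B cell markers they were 69.9 to 101 and 213 to 261 CPM, and for monocyte and macrophage markers 394 to 523 and 128 to 234 CPM. Their part in the tissue differences was not tested.

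In AireKO mice the same comparison called 5 genes, 1 higher and 4 lower in lymph node, against 51.4% of all genes (25.7% in each direction). Ccr7 had a change of -2.21 ± 0.32 (4.64-fold lower in lymph node, adjusted p = 9.1e-06), Socs2 of -1.43 ± 0.29 (3.2e-04), Apol7c of -1.33 ± 0.41 (0.0104) and Samsn1 of -0.94 ± 0.25 (0.00336). Anxa3 was higher by 0.86 ± 0.21 (0.00188). The groups of all 8 genes stood apart, as did those of 64.5% of all genes. The difference between the genotypes in this tissue effect was itself called for 0 of the 8 genes (edgeR, DESeq2 and limma voom alike), as for 0% of all genes by edgeR, and had an unadjusted p under 0.05 for 0. It measured -0.71 (-1.62 to 0.20) for Ccr7 and -0.80 (-1.62 to 0.03) for Socs2. Without the libraries numbered 2, Apol7c lost its call in the AireKO comparison (adjusted p = 0.0933). In a fit of the 2 groups alone all 8 genes were called. Fscn1 (0.34), Cacnb3 (0.44) and Marcksl1 (0.50) were then called as higher in lymph node. The share of all genes called in that fit is not given here, so this count is not a result about the 8. Limma voom (0.0246) and scaling by library size alone (0.0266) called Marcksl1 as well.

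Lymph node AGF− cells and marrow total DCs of KI/+ mice, which share the CD11c and MHCII markers of their gates, differed in 7 of the 8, against 56.1% of all genes (28.8% higher and 27.3% lower in lymph node). Apol7c was higher in lymph node by 2.29 ± 0.42 (4.88-fold, adjusted p = 1.2e-04), Marcksl1 by 1.42 ± 0.26 (2.67-fold, 1.1e-04), Fscn1 by 1.24 ± 0.25 (2.36-fold, 3.1e-04), Cacnb3 by 1.07 ± 0.32 (0.00665) and Anxa3 by 0.69 ± 0.21 (0.00855). Ccr7 was lower with a change of -1.05 ± 0.31 (0.00708) and Socs2 with -0.76 ± 0.28 (0.0263), and Samsn1 at -0.47 ± 0.25 was not called (0.113). Apol7c was thus lower in lymph node among AGF+ cells and higher there in this pair of sorts.

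The calls of Fscn1, Apol7c and Marcksl1 held in all 16 alternatives. Ccr7 lost its call without total DC replicate 1 (-0.63, adjusted p = 0.0783) and Anxa3 without total DC replicate 2 (0.0687), where Samsn1 was called (-0.65, adjusted p = 0.0450). Socs2 lost it without AGF− replicate 2 or 3 (0.0947 and 0.0950) and without total DC replicate 1 or 3 (0.0548 and 0.0654) and with scaling by library size alone (0.101), and without the libraries numbered 2 the calls of Socs2 (0.0548), Anxa3 (0.0679) and Cacnb3 (0.0694) were lost. The tissue comparisons use the same libraries as the sort comparisons, so these results are not independent of each other.

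The genotype comparisons asked whether loss of Aire changed the 8 genes. None was called in lymph node AGF+ cells, lymph node AGF− cells or marrow AGF+ cells by edgeR, by the DESeq2 Wald test or by limma voom (0 of 8 each), where edgeR called 0.0126%, 0.0063% and 0.0129% of all genes. Unadjusted p was under 0.05 for 1, 6 and 0 of the 8. The share of all genes under that threshold is not given here, so these counts are not a result about the 8. In marrow the changes from KI/+ to AireKO ran from -0.27 (Apol7c, interval -1.21 to 0.67) to 0.13 (Socs2, -0.12 to 0.38). In lymph node AGF+ cells Socs2 at -0.68 (-1.40 to 0.03) and Ccr7 at -0.67 (-1.30 to -0.03) were the lowest. There 7 of 8 were below 0, with a median of -0.27 against -0.01 over all genes. Of the 17 alternatives, only the one with no filter on low counts changed the lymph node calls of the 8. There edgeR called Ccr7, Socs2 and Apol7c lower in AireKO AGF+ cells (adjusted p = 0.00143, 0.00151 and 0.0107), with changes that moved little (-0.67, -0.69 and -0.59). It called the same 3 with Fscn1, Anxa3 and Cacnb3 lower in AireKO AGF− cells (adjusted p 3.2e-10 to 8.6e-04). Over all genes that fit called 97 in AGF+ and 270 in AGF− cells. Why it differs from the others was not tested.

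In lymph node AGF− cells all 8 changes were below 0, from -0.31 ± 0.26 for Samsn1 to -1.07 ± 0.34 for Socs2. Their median was -0.69, against 0.03 over all genes. The 8 genes moved together among replicates (below), so these are not 8 separate results. Ccr7 measured -0.95 ± 0.30 (adjusted p = 0.799), Anxa3 -0.76 ± 0.21 (0.799) and Apol7c -0.72 ± 0.31 (0.824). The groups of Fscn1, Socs2 and Anxa3 did not overlap, 3 of 8 against 8.96% of all genes. AireKO replicate 1 of this group was the lowest of its 3 libraries in all 8 genes and the lowest of all 12 lymph node libraries in 7 of them. Its 8 genes summed to 1914 CPM, against 3352 to 6202 CPM in the other 11. It also held 1236 CPM of the 8 plasmacytoid DC markers (621 and 658 in replicates 2 and 3) and 429 CPM of the NK cell markers (50.1 and 246), and their part in its low values was not tested. Without it the changes ran from -0.79 to -0.01, with a lowest adjusted p of 0.784, and without replicate 2 from -1.39 to -0.41, with a lowest adjusted p of 0.0513. The difference of the genotype effect between the AGF+ and the AGF− sort was called for 0 of the 8 by edgeR, DESeq2 and limma voom, as for 0.0063% of all genes by edgeR. An unadjusted p under 0.05 was found for 1 gene (Anxa3 at 0.65, interval 0.01 to 1.29), again with no share over all genes beside it.

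The 8 genes moved together among replicates. After each library's log2(CPM + 1) was set against the mean of its group, all 28 gene pairs correlated positively over the 21 libraries, with a lowest r of 0.32, a median of 0.75 and a highest of 0.95. Taken over the levels of the 21 libraries without setting them against their group means, the same pairs ran from -0.34 to 0.96. Their median was 0.16, and 10 of 28 were negative. These correlations are descriptions, since the points share library and depth. No other gene pairs were set beside them, so joint movement is not shown to be particular to the 8. KI/+ lymph node AGF+ replicate 2 was the lowest of its group in 7 genes, AireKO lymph node AGF+ replicate 3 the highest of its group in 8, and the marrow AireKO AGF+ libraries differed least.

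**Figure D3:**
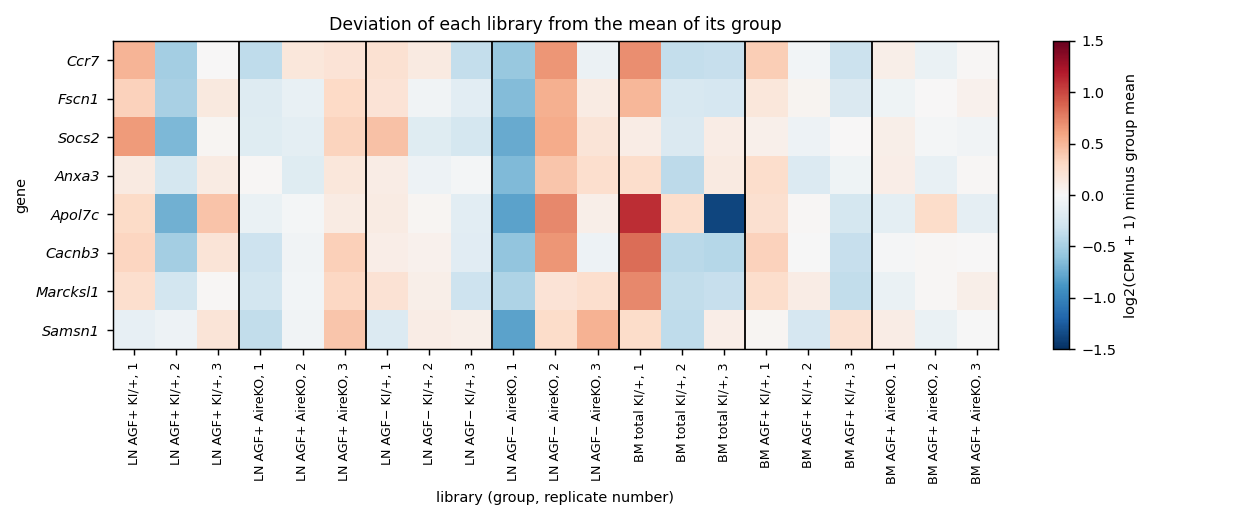
Colour gives log2(CPM + 1) of each of the 8 genes (rows) minus the mean of its group in each of the 21 libraries (columns, black lines between groups). Columns tend to 1 colour, as in lymph node AGF− AireKO replicate 1, where all 8 genes lie below their group mean, and total DC replicate 1, where all 8 lie above it.

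Among the genes whose log2(CPM + 1) followed Ccr7 most closely over the 21 libraries, out of 9374 with a mean of at least 10 CPM, were Rnf19b (Pearson r = 0.97), Serpinb6b (0.96), Sinhcaf (0.96) and Serpinb9 (0.96). Serpinb9, an inhibitor of granzyme B, averaged 114 to 140 CPM in lymph node AGF+ cells and 416 to 454 CPM in marrow AGF+ cells.

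Other genes around these 8 were read from lists of their pathways and families. The chemokines that CCR7 follows were near 0: Ccl19 reached at most 0.845 CPM and Ccl21a at most 0.845 CPM in any library. Chemokine and sphingosine phosphate receptors of inflammation, tissue homing and exit were lower in lymph node KI/+ AGF+ than AGF− cells for 9 of 12, against 11% of all genes, and higher for 0, with a median log2 change of -2.61 against 0.01 over all genes. S1pr1, which guides exit from lymphoid tissue, changed by -3.85 ± 0.30 (adjusted p = 2.6e-06). Ccr2, a monocyte chemokine receptor, changed by -4.65 ± 0.43, Xcr1, a cDC1 receptor, by -2.69 ± 0.34 and Cxcr3 by -4.51 ± 0.60. Ccr2 and Xcr1 also stand in the lists of monocyte and cDC1 markers given above, and Ccr9 in that of plasmacytoid DC markers. As given above, monocyte, B cell and NK cell markers were higher in the AGF− sort. The part of such cells in these receptor differences was not tested. In AireKO lymph node 9 of 12 were lower as well (median -2.65), against 13.3% of all genes.

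Costimulatory and checkpoint genes were higher in KI/+ lymph node AGF+ cells for 6 of 14 and lower for 1 (median 0.78), against 10.1% and 11% of all genes. Icosl, the ligand of ICOS, was higher by 1.57 ± 0.22 (adjusted p = 2.6e-04), Cd70 by 1.88 ± 0.39 and Cd80, a ligand of CD28, by 1.00 ± 0.19, and Pdcd1lg2, which encodes PD-L2, had a change of -0.95 ± 0.22. In marrow Icosl was again higher in AGF+ cells (3.40 ± 0.14) and Pdcd1lg2 lower (means of 274 and 555 CPM, adjusted p = 3.7e-04), among 3 higher and 3 lower of 13, near the 23% and 21.3% of all genes. Among 16 NF-kB genes, 2 were higher and 0 lower in lymph node AGF+ cells (median 0.07) and 9 higher and 0 lower in marrow AGF+ cells (median 0.57, all genes 0.02, of which 23% were higher). The marrow rises with the smallest p were those of Nfkbie (1.20 ± 0.19), Birc2 (1.18 ± 0.21), the deubiquitinase gene Tnfaip3 (0.97 ± 0.12) and Traf3 (0.82 ± 0.14).

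Of 26 other mature DC genes tested in KI/+ lymph node, 3 were higher in AGF+ cells, among them Eno2 (1.32 ± 0.23) and Vsig10 (1.06 ± 0.29), and 2 lower, Aldh1a2 (-2.15 ± 0.46), which makes retinoic acid, and Clu (-1.29 ± 0.33), near the share of all genes. In marrow 9 of 27 were higher and 3 lower, against 23% and 21.3% of all genes. Tmem150c rose by 2.57 ± 0.40, Eno2 by 2.35 ± 0.24, Vsig10 by 2.02 ± 0.30 and Lad1 by 1.42 ± 0.14. Between lymph node and marrow AGF+ cells of KI/+ mice this list split into 10 higher and 9 lower in lymph node, against 27.2% and 27% of all genes. H2-M2 was higher by 4.25 ± 0.37, while Nr4a3 (-3.71 ± 0.26), Stat4 (-4.12 ± 0.29) and Ido1 (-4.12 ± 0.38) were lower.

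Relatives of the 8 genes moved in both directions. Among SOCS genes, Cish, another STAT5 target, averaged 2.10 to 10.0 CPM in the 4 lymph node groups and 202 to 250 CPM in the 3 marrow groups, a change of -6.27 ± 0.32 between KI/+ AGF+ cells (adjusted p = 1.1e-11). In the same comparison Pim1, also induced through STAT5, changed by -2.27 ± 0.22 and Jak2 by -1.35 ± 0.14, and Csf2ra, a GM-CSF receptor chain, by 1.92 ± 0.15. Of 8 annexin relatives tested, 4 were lower in lymph node AGF+ cells than in marrow AGF+ cells and 1 higher, so that 5 of 8 were called against 54.2% of all genes. Anxa4 changed by -1.61 ± 0.20, Anxa5 by -1.02 ± 0.12 and Anxa6 by -1.24 ± 0.16, whereas Anxa9 changed by 1.77 ± 0.22, in the direction of Anxa3.

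Marcks, the larger relative of Marcksl1, was lower in lymph node than in marrow AGF+ cells of KI/+ mice (-0.72 ± 0.18, adjusted p = 0.0022), opposite in sign to Marcksl1 (0.70 ± 0.25). The actin list as a whole had 13 of 19 genes lower there and 0 higher (median -0.74, all genes 0.04, of which 27% were lower), with Lcp1, the leukocyte bundling protein plastin, at -1.17 ± 0.11, Cfl1 at -1.11 ± 0.13, Arpc2 at -1.14 ± 0.14 and Diaph1 at -1.31 ± 0.15. Fscn2 stayed at or below 4.32 CPM in every library. Sash1, related to Samsn1, changed by 1.55 ± 0.30, against -1.02 for Samsn1.

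Of the 12 apolipoprotein L relatives of Apol7c, 2 passed the filter in the lymph node fit and 2 in the marrow fit. Apol10b ranged from 13.1 to 24.7 CPM in KI/+ lymph node AGF+ cells, 18.6 to 24.9 in KI/+ AGF− cells, 17.5 to 24.5 in KI/+ marrow AGF+ cells and 0.386 to 2.34 in total DCs. It was higher in marrow AGF+ cells than in total DCs by 3.83 ± 0.49 (adjusted p = 1.2e-04), like Apol7c, but was not called between the lymph node sorts (-0.24 ± 0.42, adjusted p = 0.737), and its sort effect differed between the tissues by -4.05 ± 0.73 (adjusted p = 4.1e-04). Apol7e had 2 counts over the 3 KI/+ lymph node AGF+ libraries and 35 over the AGF− libraries. Reads shared between these closely related genes could be counted for either or for none, as no source used here gives the handling of such reads.

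Among the other calcium channel genes, 6 of 14 were higher and 3 lower in KI/+ lymph node AGF+ cells (median 0.64), against 10.1% and 11% of all genes. Those with the smallest p were the pore-forming subunits Cacna1a (1.82 ± 0.24) and Cacna1c (1.53 ± 0.25), higher, and Cacna1e (-2.84 ± 0.40) and Cacna1i (-3.84 ± 0.67), lower. In marrow AGF+ cells 8 of 13 were higher and 1 lower, against 23% and 21.3% of all genes. Cacna1b was higher by 2.97 ± 0.23, and Cacna1h, at 286 counts over the 3 AGF+ libraries and 0 in total DCs, was at least 89.4-fold higher against a floor of 3 counts over the group. Cacnb2, a sister β subunit, was lower in lymph node than in marrow AGF+ cells (-2.44 ± 0.21), where Cacnb3 was higher.

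**Figure D4:**
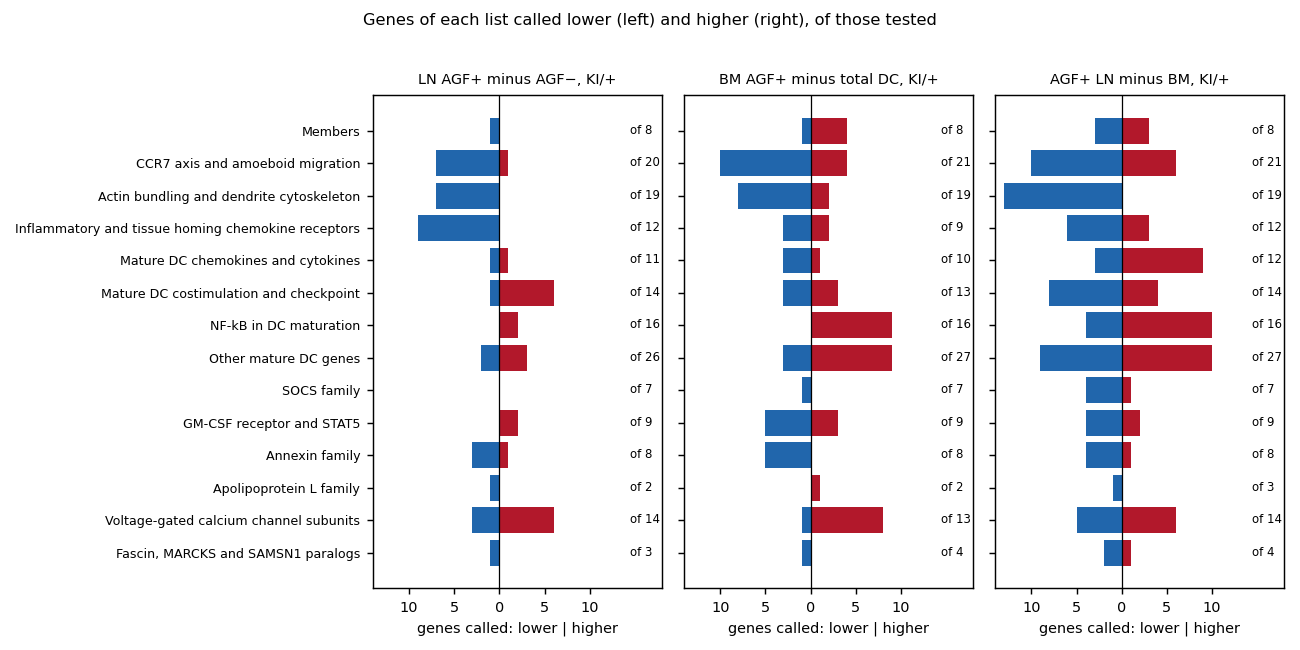
Number of genes (x axis) called lower (left of 0) and higher (right of 0) in each list of pathway or family genes (y axis) in 3 comparisons of KI/+ cells, with the number tested at the right of each panel. The list of inflammatory and homing receptors, which also holds S1pr1 and S1pr3, is lower in lymph node AGF+ cells for 9 of 12, NF-kB genes higher in marrow AGF+ cells for 9 of 16, and actin genes lower in lymph node than in marrow AGF+ cells for 13 of 19.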

How the data were processed

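Per the labels, Ovation SoLo libraries were prepared from 1 ng of RNA of sorted cells (integrity number above 7) and sequenced in pairs of 150 bp. Tools in the submitters' processing notes are STAR 2.7.3a, HTSeq 0.11.2, fastp 0.20.0, edgeR 3.38.1, Picard 2.21.1 and SAMtools 1.9, with the build mm10 (GRCm38). No source used here gives the annotation release, the strand setting or the treatment of multiply mapped reads. The authors deposited raw read counts (unit: counts) of 55471 genes, used as they stand, and 327 identifiers with 0.0139% of counts had no symbol. A normalized table was not used here.

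Counts were tested with the edgeR 4.0.16 quasi-likelihood F test (R 4.3.3), with TMM scaling, filtering by group and Benjamini-Hochberg adjustment over all genes, called at an adjusted p under 0.05. Lymph node (12 libraries), marrow (9) and cross-tissue comparisons (21) had a fit each, and 95% intervals come from these fits. CPM uses TMM effective library sizes (0.877 to 1.09 of totals), and RPKM divides it by exon length. Alternatives used DESeq2 1.42.0 and limma 3.58.1. The tests were tested on simulated counts. The 8 genes, the lists and the rule that names up to 4 called genes of a list by smallest p were chosen with earlier results of these data known. Libraries with the same replicate number deviated together (every r above 0.1) in 7 of 9 pairs of groups within a tissue, including those compared, against 4 of 12 between tissues. Lymph node AGF− cells of KI/+ and AireKO mice, which cannot share a mouse, were among the 7 (r of 0.54, 0.57 and 0.55). Libraries numbered 2 also shared the Xist and Y-linked levels given above, and Xist was kept here. These r values thus do not show that libraries came from the same mice, and their source was not tested. The replicate number was tried as a block. Of the genes named for their likeness to Ccr7, 1 is not reported here.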

Additional observations from a re-analysis of the deposited data

Results flagged for a closer look

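The effect of the sort on Apol7c differed between the tissues. The log2 difference between AGF+ cells and the other DC sort was 1.28 below 0 in lymph node (-1.28) and 2.06 in marrow, and the difference of the 2 effects was -3.32 in KI/+ mice by the interaction test of edgeR (adjusted p = 3.3e-04). All 3 lymph node AGF+ libraries lay below all 3 AGF− libraries, and all 3 marrow AGF+ libraries above all 3 total DC libraries. No other gene of the 8 met this test, which 21% of the 17265 genes met, so 1 of 8 is no more than the background. Gate and tissue cannot be told apart in this difference. Without the libraries numbered 2 the marrow difference was not called by edgeR (adjusted p = 0.0515), while the interaction still was.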

How the results depend on the processing

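The direction of no called gene of the 8 reversed under any alternative. Counts of called genes moved by over 1.5 times as follows, with the cause not tested unless the alternative itself tests fewer libraries or sets a stricter threshold. Counts over all genes that are not named moved by no more than that. The counts of the 8 are not set against a share of all genes under the same setting, so they are not results about the 8. With no filter on low counts, edgeR called 6 of the 8 for the AireKO lymph node sort, 3 and 6 for genotype in lymph node AGF+ and AGF− cells, 8 for tissue in AireKO AGF+ cells and 4 for the interaction of sort and tissue. Over all genes it then called 97 and 270 for genotype in lymph node AGF+ and AGF− cells, 26 for genotype in marrow, 14 for the interaction of genotype and sort and 17 for that of genotype and tissue. DESeq2 called 4, 3 and 2 genes for genotype in the lymph node AGF+ sort, in the AGF− sort and for its interaction with sort, and limma voom called 3 of the 8 for the interaction of sort and tissue. A fit of only the groups compared called 1 of the 8 for the AireKO lymph node sort, 8 for tissue in AireKO AGF+ cells and 0 genes for genotype in lymph node AGF− cells (for the interaction of genotype and sort it equals the fit used). A single fit of all 21 libraries called 3 of the 8 for the marrow sort. The replicate block called 4, 2 and 2 genes for genotype in lymph node AGF+ cells, in AGF− cells and for the interaction with sort. It changed no call of the 8 other than that of Cacnb3 in marrow. At an adjusted p under 0.01, 0 of the 8 were called for the lymph node sort in either genotype (1812 genes in KI/+ and 2333 in AireKO mice), 3 for the marrow sort and 3 for tissue in KI/+ AGF+ cells, and the interaction of sort and tissue kept 2111 genes. Without the libraries numbered 2, 2 of the 8 were called for the marrow sort (3858 genes) and 4 for lymph node AGF− cells against total DCs, and the counts over all genes were 1942 for the KI/+ lymph node sort, 0 for the interaction of genotype and sort, 1 for genotype in marrow and 1787 for the interaction of sort and tissue. Leaving out each library in turn gave 0 to 3 of the 8 for the AireKO lymph node sort, 3 to 6 for the marrow sort and 1 to 3 for the interaction of sort and tissue. Over all genes it gave 2 to 7 for genotype in lymph node AGF+ cells, 1 to 89 in AGF− cells (89 without AireKO replicate 2) and 1 to 2 for the interaction of genotype and sort. With 3 libraries a group, differences smaller than the printed intervals could not be shown, and depth limits the low genes of the lists more than the 8.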
